A study of Mus musculus with 12 samples.

Results

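The genes of 7 matrix metalloproteinases (Mmp2, Mmp3, Mmp9, Mmp10, Mmp13, Mmp14 and Mmp19) and of 3 tissue inhibitors of metalloproteinases (Timp1, Timp2 and Timp3) were examined in RNA-seq data of 2 mouse testis cell lines. They are 10 of the 17995 genes with a row and were picked by gene symbol. The 10 genes were selected on their levels and shM5 differences in these same libraries, so what follows describes those levels and differences, and the tests give no independent support. The lines were C18-4, a spermatogonial stem cell line, and TM4, a Sertoli cell line. Each received lentivirus that carried a mixture of shRNAs against the M5 muscarinic acetylcholine receptor gene Chrm5 (shM5) or a control shRNA (shNC, labelled C3NC in C18-4 and TM3NC in TM4). Each of the 4 groups had 3 libraries. Each line is a single cell line, labelled with the strain IRC, and no label says that the libraries of a group came from separate cultures. The p-values therefore measure the spread between these libraries, which may be technical.

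Matrix metalloproteinases (MMPs) are zinc endopeptidases that are made as inactive proenzymes and cut collagens, gelatin, proteoglycans and other matrix and cell surface proteins. TIMPs bind the active site of the mature enzymes and block it. In the testis, proteases and their inhibitors are best known from the junctions between Sertoli cells and between Sertoli and germ cells, where matrix and adhesion proteins turn over as germ cells move along the epithelium.

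Levels are given as RPKM, reads scaled to gene length and to the total of mapped reads. RPKM summed to between 506413 (C18-4 shM5 replicate 3) and 540231 (C18-4 shNC replicate 1) per library. Levels of different libraries are therefore only roughly on the same scale. Chrm5 was listed at 0 in 10 of the 12 libraries and at 0.01 RPKM in the remaining 2, both shNC, so its knockdown could not be checked here. The labelled cell types lacked part of their markers. In C18-4, Uchl1 stood at 76.8 to 140 RPKM, but in each group 11 of 15 spermatogonial markers were under 0.5 RPKM in all 3 libraries, with Ddx4 at no more than 0.05. The Sertoli marker Wt1 averaged 58.6 RPKM in C18-4 shNC and was at no more than 0.15 in any TM4 library. Of 16 Sertoli markers, 7 were under 0.5 RPKM in all TM4 shNC libraries and 8 in all TM4 shM5 libraries. In TM4, Kitl, Inhbb and Gata4 averaged 40.5, 14.9 and 9.75 RPKM in shNC, Sox9 lay between 1.11 and 1.74, and Amh was at no more than 0.19. The lines are therefore called by their names. Macrophage markers, which matter here because macrophages make MMPs, summed to 2.58 to 4.94 RPKM in C18-4 and 16.6 to 20.3 in TM4, where most of it was Cd14. Ptprc was at no more than 0.04 RPKM in any library and Adgre1 was listed at 0.

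Replicate 3 stood apart in both lines. Over the 11016 genes tested in TM4, the log2 difference between shNC replicates 1 and 2 had an SD of 0.189, whereas shNC replicate 3 differed from them with SDs of 0.640 and 0.642. The same shNC replicate 3 differed from the 3 shM5 libraries with SDs of 0.202 to 0.256, no more than the shM5 libraries differed from each other (0.201 to 0.268). This library thus lay with the shM5 group and against its label. The tests and sums that use it are given also without it. In C18-4, over 11611 genes, replicates 1 and 2 of a group differed with SDs of 0.199 (shNC) and 0.201 (shM5), and replicate 3 of shNC lay closer to replicate 3 of shM5 (0.321) than to the other shNC libraries (0.402 and 0.418). Results in C18-4 are therefore given also with the replicate number as a block, that is, as differences between libraries of the same number.

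The gelatinase Mmp2, which cuts gelatin and type IV collagen of basement membranes, was the most abundant MMP in every library. In C18-4 shNC it stood at 99.26, 97.27 and 105.55 RPKM, and in C18-4 shM5 at 85.05, 86.15 and 84.18. In TM4 shNC it stood at 104.59, 103.72 and 137.40 RPKM, and in TM4 shM5 at 136.05, 141.55 and 111.79. The C18-4 groups did not overlap, and the TM4 groups did, since shNC replicate 3 was above 2 of the 3 shM5 libraries. The membrane-type enzyme Mmp14, which sits on the cell surface and is known to activate pro-Mmp2 together with Timp2, was next among the MMPs. It stood at 26.73, 27.87 and 28.09 RPKM in C18-4 shNC and at 23.27, 23.40 and 22.16 in C18-4 shM5. In TM4 it was at 34.29, 35.24 and 47.69 RPKM in shNC and at 46.82, 46.68 and 42.98 in shM5. Mmp14 followed Mmp2 in both respects: shNC was above shM5 in every C18-4 library, and TM4 shNC replicate 3 lay with the shM5 libraries. Mmp2 and Mmp14 together made up 97.0% ± 0.214 (SD, n = 3) of the summed level of the 7 MMP genes in C18-4 shNC, and 74.3% ± 0.159 in TM4 shNC.

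**Figure D1:**
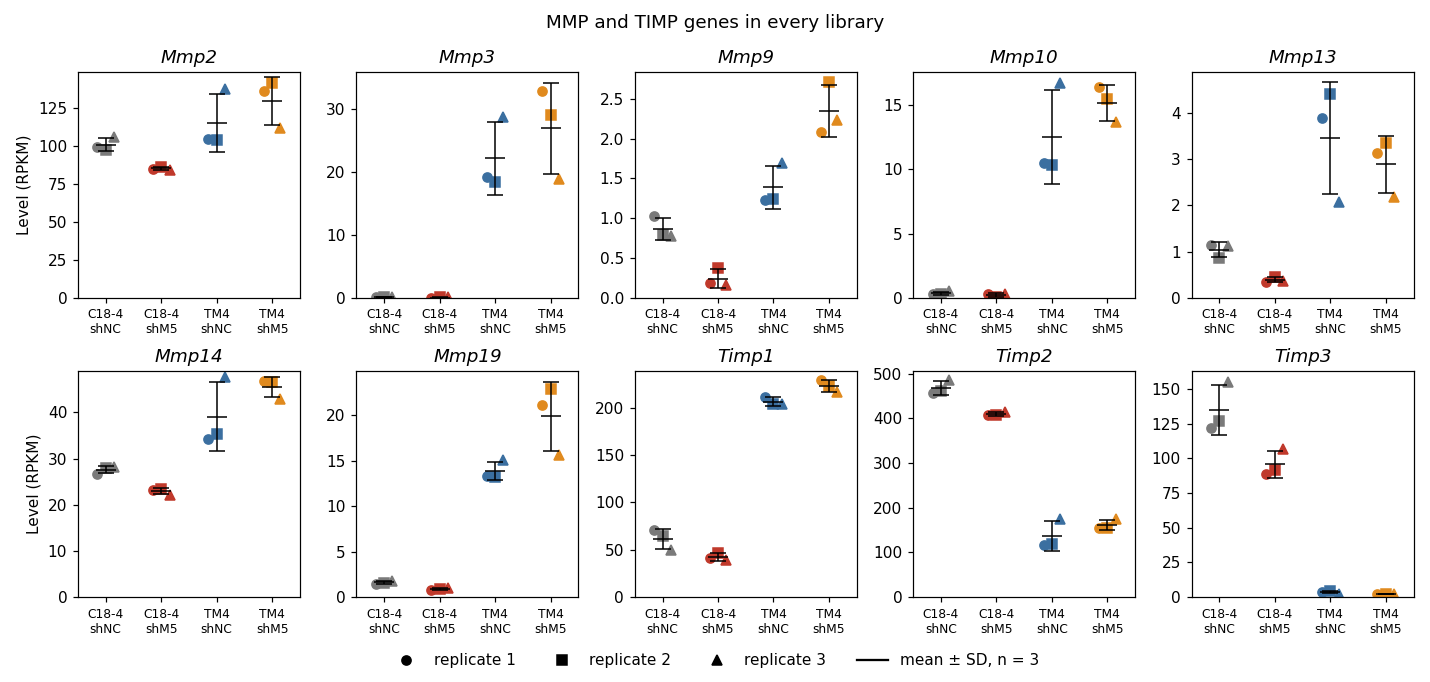
Level in RPKM (linear y axis from 0, its own scale in each panel) of the 10 genes in each of the 12 libraries. Symbols are replicates 1 to 3 and black bars the group mean ± SD, n = 3. The 3 shM5 libraries of C18-4 lie below the 3 shNC libraries for 8 of the 10 genes, all but Mmp3 and Mmp10, and TM4 shNC replicate 3 lies within or above the range of the shM5 libraries for Mmp2, Mmp3, Mmp10, Mmp14 and Timp2.

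Of the remaining MMPs, Mmp3, Mmp10 and Mmp19 set the lines furthest apart. The stromelysins Mmp3 and Mmp10, which cut proteoglycans, fibronectin and other matrix proteins and can activate other MMPs, were near the lower limit in C18-4. Mmp3 was at 0.04, 0.11 and 0.18 RPKM in C18-4 shNC and at 0.00, 0.04 and 0.04 in C18-4 shM5. These values are 1, 3, 5, 0, 1 and 1 times a step of 0.036 RPKM to within 0.005 RPKM, so they stand for a handful of reads. Each shM5 value was below the shNC value of the same number, but levels this low were not tested. In TM4, Mmp3 was at 19.20, 18.44 and 28.77 RPKM in shNC and at 32.81, 29.07 and 18.80 in shM5. Mmp10 was at 0.26, 0.26 and 0.50 RPKM in C18-4 shNC and at 0.26, 0.08 and 0.31 in C18-4 shM5, and the groups overlapped. In TM4, Mmp10 was at 10.48, 10.31 and 16.77 RPKM in shNC and at 16.41, 15.46 and 13.66 in shM5. Reads of this pair may be shared: 17.4% of the 50-base windows of the Mmp3 transcript and 18.2% of those of Mmp10 match the other within 2 mismatches, so the split between the 2 genes is uncertain. Of the other members, Mmp19 shared 0.119% of its windows with Mmp17, and no window of the remaining 7 was shared.

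Mmp13, the main interstitial collagenase of mice, was at 1.14, 0.85 and 1.13 RPKM in C18-4 shNC and at 0.35, 0.45 and 0.36 in C18-4 shM5, with no overlap. In TM4 it was at 3.88, 4.40 and 2.08 RPKM in shNC and at 3.14, 3.34 and 2.17 in shM5. Here shNC replicate 3 was the lowest of the 6 libraries and the 2 groups overlapped. The gelatinase Mmp9 was at 1.03, 0.79 and 0.78 RPKM in C18-4 shNC and at 0.18, 0.38 and 0.16 in C18-4 shM5. The TM4 levels of Mmp9 were 1.23, 1.24 and 1.70 RPKM in shNC and 2.08, 2.71 and 2.24 in shM5. The groups did not overlap in either line, and lay in opposite order: shM5 was the lower group in C18-4 and the higher in TM4. Mmp19, a widely expressed MMP that cuts basement membrane components, was at 1.48, 1.55 and 1.81 RPKM in C18-4 shNC and at 0.73, 0.87 and 0.96 in C18-4 shM5. In TM4 it was at 13.35, 13.17 and 15.03 RPKM in shNC and at 21.15, 22.93 and 15.58 in shM5. Mmp19 had the same opposite order, with TM4 shNC replicate 3 just under the lowest shM5 library.

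Timp1 and Timp2 were above every MMP gene except Mmp2 in all libraries. Timp2, which inhibits MMPs in general and takes part in pro-Mmp2 activation, was at 456.52, 461.26 and 486.42 RPKM in C18-4 shNC and at 407.16, 406.81 and 413.78 in C18-4 shM5. The TM4 levels of Timp2 were 116.93, 117.70 and 174.55 RPKM in shNC and 154.54, 155.15 and 174.78 in shM5. Timp3, the TIMP that stays bound to the matrix and also inhibits ADAM proteases, was at 122.06, 126.57 and 155.25 RPKM in C18-4 shNC and at 88.67, 91.31 and 106.75 in C18-4 shM5. In TM4 it was at only 3.55, 4.17 and 2.47 RPKM in shNC and at 2.05, 2.22 and 2.08 in shM5. Timp3 was thus the single member whose shM5 libraries lay below all shNC libraries in both lines. Timp1, a soluble inhibitor that growth factors and cytokines induce in many cells, was at 70.49, 64.05 and 49.46 RPKM in C18-4 shNC and at 41.00, 46.77 and 39.09 in C18-4 shM5. The TM4 levels of Timp1 were 211.99, 204.51 and 203.78 RPKM in shNC and 229.40, 223.20 and 216.47 in shM5. The Timp1 groups did not overlap in either line, although the gap in C18-4 was small, since the lowest shNC library (49.46) was close to the highest shM5 library (46.77).

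The order of the mean levels in C18-4 shNC was Timp2, Timp3, Mmp2, Timp1, Mmp14, Mmp19, Mmp13, Mmp9, Mmp10 and Mmp3. Of neighbours in this order, Mmp13 and Mmp9 overlapped, with 1.04 ± 0.165 and 0.867 ± 0.142 RPKM (mean ± SD, n = 3), and the other neighbouring pairs did not. In TM4 shNC the order was Timp1, Timp2, Mmp2, Mmp14, Mmp3, Mmp19, Mmp10, Mmp13, Timp3 and Mmp9. There, Timp2 (136 ± 33.0) and Mmp2 (115 ± 19.2) overlapped, as did Mmp19 (13.9 ± 1.03) and Mmp10 (12.5 ± 3.68), and Mmp13 (3.45 ± 1.22) and Timp3 (3.40 ± 0.860). The overlaps of Timp2 with Mmp2 and of Mmp19 with Mmp10 came from shNC replicate 3. In replicates 1 and 2, Timp2 (116.93 and 117.70) lay above Mmp2 (104.59 and 103.72), and Mmp19 (13.35 and 13.17) above Mmp10 (10.48 and 10.31). Mmp13 and Timp3 overlapped there too.

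The shM5 comparison asks what changed in each line when the M5 receptor was targeted. In C18-4, limma on log2(RPKM + 0.1) called 68 of 11611 genes at a Benjamini-Hochberg adjusted p below 0.05 (0.586%) and none of the 8 members tested, while 1425 genes had an unadjusted p under 0.05. Mmp3 and Mmp10 were under the filter of a mean of 0.5 RPKM and were not tested. Mmp9 and Mmp13 passed that filter through their shNC level, since their shM5 means were 0.240 and 0.387 RPKM. Deviations from the group means went together in same-numbered C18-4 libraries (r = 0.439, 0.409 and 0.631 over genes). They also did so between replicate 1 of a group and replicate 2 of the other (r = 0.341 and 0.345). No label pairs the libraries, and the numbers mainly set replicate 3 apart from replicates 1 and 2. With that limit, the fit with the replicate block is given beside the first. It called 781 genes lower (6.73%) and 605 higher (5.21%), and all 8 tested members were among the lower ones. The shM5 libraries also lay below all shNC libraries for all 8, as for 9.55% of all genes tested. Because the choice of members used these differences, nothing is read from either count.

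Among the MMP members tested in C18-4, Mmp9, Mmp13 and Mmp19 differed most. Mmp9 and Mmp13 passed the filter through their shNC level, and the members were selected on these differences. Nothing is therefore read from this order. Of the scarcer and untested members, Mmp10 was at 63.7% of its shNC mean and Mmp3, from a handful of reads, at 24.2%. Mmp9 in shM5 was at 27.7% of its shNC mean, with a log2 difference of -1.55 (SE 0.315, limma adjusted p = 0.103, and 0.0168 with the block). Its shM5 level was 17.5%, 48.1% and 20.5% of that in the shNC library of the same number. Mmp13 was at 37.2% of its shNC mean (log2 difference -1.22, SE 0.227, limma adjusted p = 0.0861, and 0.0172 with the block). Mmp19 was at 52.9%, with 49.3%, 56.1% and 53.0% in the 3 pairs, and a log2 difference of -0.85 (limma adjusted p = 0.125, and 0.0156 with the block). The abundant Mmp2 and Mmp14 differed less, at 84.5% and 83.2% of their shNC means, with limma adjusted p of 0.182 and 0.183, and 0.0202 and 0.0252 with the block.

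The 3 inhibitors of C18-4 differed in the same direction. Timp1 was at 68.9% of its shNC mean, and the pairs were at 58.2%, 73.0% and 79.0% (log2 difference -0.52, SE 0.140, limma adjusted p = 0.192, and 0.00878 with the block). Timp3 was at 71.0%, and its pairs were at 72.6%, 72.1% and 68.8% (log2 difference -0.49, limma adjusted p = 0.151, and 0.00131 with the block). Timp2 was at 87.4% of its shNC mean, with a log2 difference of -0.19 (limma adjusted p = 0.265, and 0.0221 with the block). The median log2 difference of the 8 members was -0.51, against -0.0024 over all genes tested. Nothing is read from this gap, because the members were selected on these differences. Of other MMP genes, 5 passed the filter in C18-4, namely Mmp11, Mmp15, Mmp16, Mmp17 and Mmp24, with log2 differences of 0.06, -0.05, -0.01, -0.23 and -0.03, and none was called by limma in either fit.

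In TM4, limma called 0 of 11016 genes (0.0%), members included, although 2866 genes had an unadjusted p under 0.05. For 8 of the 10 members the mean was higher in shM5 than in shNC, the exceptions being Mmp13 and Timp3, and the median log2 difference was 0.25, against 0.04 over all genes tested. The members were selected on differences in this line too, so nothing is read from this median. The largest log2 differences were 0.72 for Mmp9 (SE 0.187, limma adjusted p = 0.192), -0.63 for Timp3 (limma adjusted p = 0.192) and 0.50 for Mmp19 (limma adjusted p = 0.192). Mmp9, Mmp19 and Timp1 were higher in all shM5 libraries than in any shNC library, as were 15.7% of genes tested, and Timp3 was lower, as were 11.1%. Same-numbered TM4 libraries did not deviate together (r = 0.073, 0.049 and 0.127).

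Without TM4 shNC replicate 3, limma called 7433 of 11026 genes. Of these, 4026 were higher (36.5%) and 3407 lower (30.9%), and 8 of the 10 members were called, beside 67.4% of all genes tested. This fit sets shM5 against shNC replicates 1 and 2 only, chosen after the values of replicate 3 were seen. Mmp2, Mmp9, Mmp10, Mmp14, Mmp19 and Timp2 were higher in shM5 by 0.31, 0.86, 0.54, 0.39, 0.56 and 0.46 on the log2 scale, with limma adjusted p between 0.000293 (Timp2) and 0.0190 (Mmp2). Mmp13 and Timp3 were lower in shM5 by 0.53 and 0.83 on the log2 scale (limma adjusted p = 0.0336 and 0.000451). Mmp3 and Timp1 were not called, with limma adjusted p of 0.0720 and 0.0652. Of other MMP genes tested in TM4, Mmp24 was then called higher (0.55) and Mmp28 lower (-1.49), while Mmp11 and Mmp23 were not called. With all 6 libraries none of these 4 was called by limma.

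Marker sums moved as well. The 9 fibroblast or peritubular markers summed to 659, 637 and 912 RPKM in TM4 shNC, the last being replicate 3, and to 944 to 1109 in TM4 shM5. Their members did not move alike. Without shNC replicate 3, limma called 5 of the 7 tested higher, Acta2, Cnn1, Col1a1, Col1a2 and Pdgfra, and Twist2 lower. That fit called 36.5% of all genes tested higher and 30.9% lower. Twist2 was at 129.66, 129.91 and 97.69 RPKM in TM4 shNC and at 76.95, 72.89 and 78.65 in TM4 shM5, and Acta2 at 66.39, 63.29 and 139.83 and at 143.86, 141.73 and 193.88. The 16 Sertoli markers with a row summed to 95.8, 93.8 and 52.7 RPKM in TM4 shNC, again with replicate 3 last, and to 47.8 to 50.9 in TM4 shM5.

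In C18-4 the fibroblast or peritubular markers summed to 346, 360 and 318 RPKM in shNC and to 456, 454 and 348 in shM5. Acta2 was at 23.70, 19.80 and 15.90 RPKM in C18-4 shNC and at 56.74, 61.81 and 34.63 in C18-4 shM5 (log2 difference 1.34, limma adjusted p = 0.0764, and 0.000608 with the block). Col1a1 was also called higher with the block (log2 difference 0.20, limma adjusted p = 0.04998). The Sertoli markers summed to 81.3 to 82.4 RPKM in C18-4 shNC and 87.3 to 95.5 in C18-4 shM5. With the block limma called Wt1 and Rhox5 higher and Gata4 lower, the latter at 6.60 ± 1.08 RPKM in shNC and 4.69 ± 1.46 in shM5 (log2 difference -0.51, limma adjusted p = 0.418, and 0.0181 with the block). The 15 spermatogonial markers summed to 81.9 to 125 and 127 to 146 RPKM, mostly Uchl1. Uchl1 was called higher with the block (log2 difference 0.38, limma adjusted p = 0.0292, and 0.408 without the block). Beside these marker calls, the block called 5.21% of all genes tested higher and 6.73% lower. The part of all these markers in the MMP and TIMP differences was not tested, and in these bulk libraries fewer cells of a kind and less RNA per cell cannot be told apart.

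**Figure D2:**
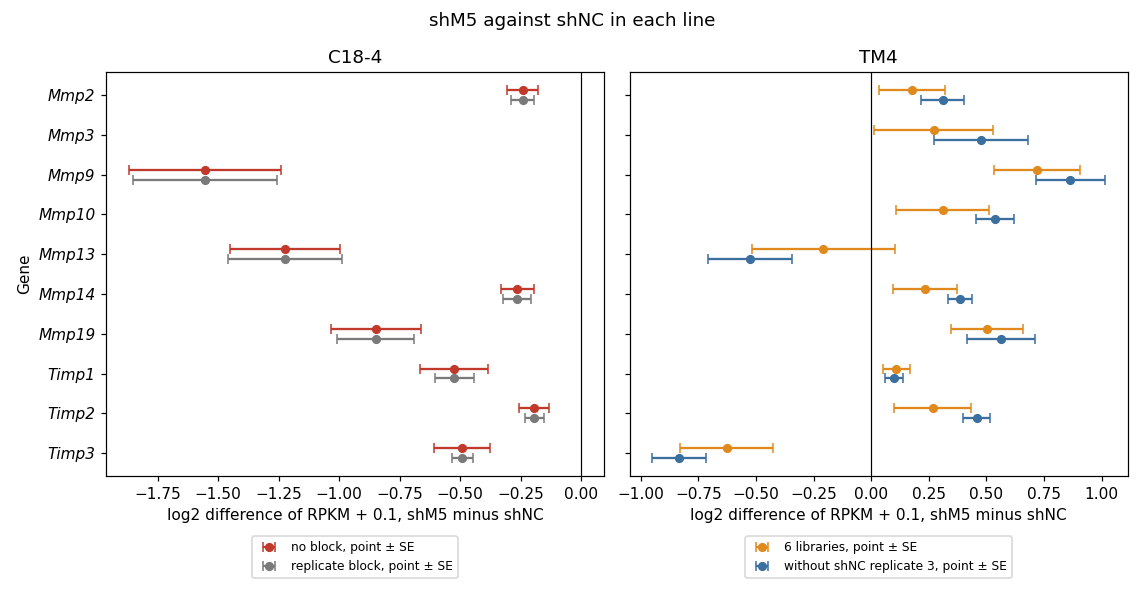
Log2 difference of RPKM + 0.1 between shM5 and shNC (x axis, shM5 minus shNC) for each gene in C18-4 (left) and TM4 (right), points with limma standard errors. In C18-4 all 8 tested genes lie below 0, from -0.19 (Timp2) to -1.55 (Mmp9), and the replicate block leaves the points in place. In TM4 most genes lie above 0, Mmp13 and Timp3 lie below, and leaving out shNC replicate 3 moves 9 of the 10 points away from 0.

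The difference between the lines in the shM5 effect was tested in 1 fit of all 12 libraries. limma called 12 of 11773 genes, of which 8 had the lower effect in C18-4 (0.068%), and Mmp9 was one of these. Its effect in C18-4 lay below that in TM4 by a log2 difference of -2.27 (SE 0.339, limma adjusted p = 0.0468), and it was lower in 3 of 3 C18-4 shM5 libraries and higher in 3 of 3 TM4 ones. This call was lost with the replicate block (limma adjusted p = 0.105) and without any 1 of 9 of the 12 libraries, and held without C18-4 shNC replicate 3, C18-4 shM5 replicate 2 or TM4 shNC replicate 3. Over all alternatives the limma adjusted p ranged from 0.000481 to 0.166. Mmp19 had a difference of -1.35 that was not called (limma adjusted p = 0.0587), and Timp3, lower in shM5 in both lines, had one of 0.14 (limma adjusted p = 0.735). Without TM4 shNC replicate 3, limma called 7 members, Mmp2, Mmp3, Mmp9, Mmp14, Mmp19, Timp1 and Timp2, as lower in C18-4, as it did 21.5% of 11793 genes.

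Comparison of the shNC libraries shows the family as each line expresses it. limma called 6517 of 11810 genes, 4095 of them higher in C18-4 (34.7%) and 2422 lower (20.5%). The median of all genes was 0.15 on the log2 scale as deposited and 0.02 after rescaling by the median ratio, which turned the split into 3449 higher and 3071 lower. Timp2 and Timp3 were higher in C18-4. Timp3 was 39.6 times as high as in TM4, with a log2 difference of 5.29 (SE 0.209, limma adjusted p = 1.42e-06), and Timp2 had one of 1.80 (limma adjusted p = 0.00011). The other 7 called members were lower. Mmp3, Mmp10 and Mmp19 had log2 differences of -6.75, -4.85 and -3.03 (limma adjusted p of at most 1.1e-05), of which the first depends on the pseudocount, since C18-4 holds so few Mmp3 reads. Timp1, Mmp13, Mmp9 and Mmp14 had differences of -1.77, -1.58, -0.62 and -0.49 (limma adjusted p = 4.97e-05, 0.00384, 0.0375 and 0.0261). The Mmp14 call was lost without C18-4 shNC replicate 1, 2 or 3 (limma adjusted p = 0.0852, 0.0756 and 0.0595). The Mmp9 call was lost without any of the libraries C18-4 shNC 2 and 3 and TM4 shNC 1, 2 and 3 (limma adjusted p = 0.0536 to 0.121). Mmp2 was not called (log2 difference -0.18, limma adjusted p = 0.270). The median log2 difference of the 10 members was -1.10, and the members were selected on their levels in these libraries. In the shM5 libraries of both lines, the members had the same directions, with Mmp9 at -2.89 and Mmp2 at -0.60. Mmp9 averaged only 0.240 RPKM in C18-4 shM5. The share of all genes called there is not given, so no calls or p-values of members are given either. All 9 called members kept their direction under every scaling. Without TM4 shNC replicate 3, limma called 42.0% of 11804 genes higher in C18-4 and 27.0% lower. Timp2 and Timp3 were then at 1.99 and 5.08, Mmp3, Mmp10, Mmp19, Timp1, Mmp13 and Mmp14 at -6.55, -4.62, -2.97, -1.78, -1.90 and -0.33, all 8 called, and Mmp9 and Mmp2 at -0.48 and -0.05, both not called.

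**Figure D3:**
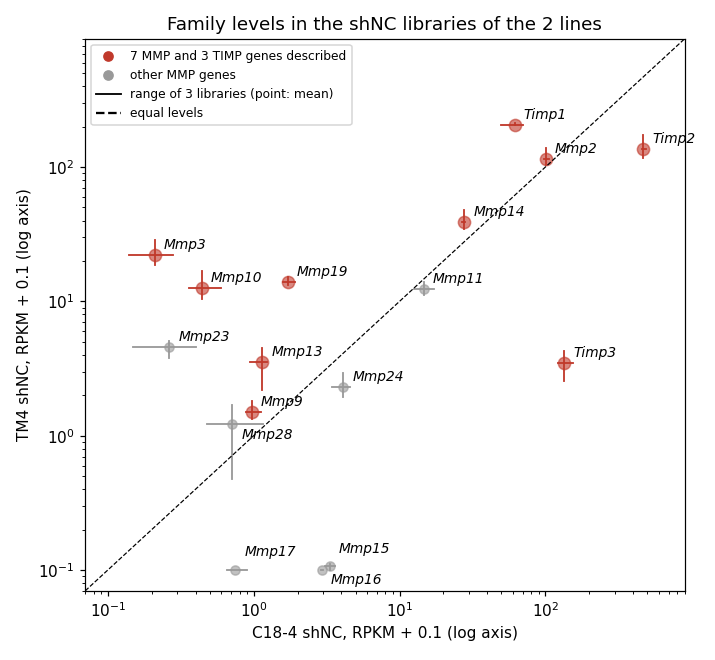
Mean RPKM + 0.1 in the 3 C18-4 shNC libraries (x, log axis) and the 3 TM4 shNC libraries (y, log axis) of the MMP and TIMP genes that reach a mean of 0.5 RPKM in either group. Lines through a point span the lowest and highest library, and the dashed line marks equal levels. Timp2 and Timp3 lie under the line, Mmp3, Mmp10, Mmp19 and Timp1 far above it, and Mmp2 and Mmp14 close to it.

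Of 17 other MMP and TIMP genes, 14 had a row. The membrane-type genes Mmp15 and Mmp24 were higher in C18-4, with log2 differences of 4.96 and 0.86 (limma adjusted p = 8.98e-07 and 0.0139). Mmp16 and Mmp17, also membrane-type, were listed at 0 in all TM4 libraries and stood at 2.79 to 2.89 and 0.56 to 0.80 RPKM in C18-4 shNC. Mmp23 was lower in C18-4 (-4.22, limma adjusted p = 7.3e-05). Mmp11, at 11.1 to 17.0 RPKM in all shNC libraries, did not pass the test (log2 difference 0.24, limma adjusted p = 0.227), nor did Mmp28 (-0.71, limma adjusted p = 0.315). Without TM4 shNC replicate 3, Mmp28 was called lower in C18-4 (-1.29, limma adjusted p = 0.0317), Mmp15, Mmp16, Mmp23 and Mmp24 kept their calls, and Mmp11 again was not called. Mmp1a, Mmp1b, Mmp8, Mmp12, Mmp25 and Mmp27 were under 0.6 RPKM in every library, and Mmp21 was listed at 0. The remaining 3, Mmp7, Mmp20 and Timp4, were not analysed here.

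Summed levels put these differences in proportion. The 7 MMP genes summed to 132 ± 5.07 RPKM in C18-4 shNC and 110 ± 1.60 in C18-4 shM5, and to 208 ± 36.2 in TM4 shNC and 242 ± 30.6 in TM4 shM5 (mean ± SD, n = 3). The 3 TIMP genes summed to 664 ± 23.5 and 547 ± 11.6 RPKM in C18-4, and to 347 ± 29.8 and 387 ± 6.40 in TM4. The ratio of the TIMP sum to the MMP sum was 5.02 ± 0.037 in C18-4 shNC and 4.98 ± 0.164 in C18-4 shM5, and 1.68 ± 0.138 and 1.62 ± 0.246 in TM4 shNC and shM5. Within a line the 2 groups overlapped in this ratio, while all C18-4 libraries (4.89 to 5.17) were above all TM4 libraries (1.45 to 1.90). Timp2 made up 70.5% ± 0.233 of the TIMP sum in C18-4 shNC and 74.8% ± 0.962 in C18-4 shM5, and Timp1 made up 60.0% ± 5.63 in TM4 shNC. Without Mmp2, Mmp14 and Mmp19, the remaining 4 enzymes Mmp3, Mmp9, Mmp10 and Mmp13 summed to 2.36 ± 0.306 RPKM in C18-4 shNC and 0.870 ± 0.080 in C18-4 shM5, and to 39.5 ± 8.51 in TM4 shNC and 47.3 ± 9.23 in TM4 shM5. TM4 shNC replicate 3 raised the SD of its group in these sums. Its MMP sum was 249.44 RPKM, against 187 in each of replicates 1 and 2, its TIMP sum 381 against 332 and 326, and its sum of the 4 enzymes 49.3 against 34.8 and 34.4. Replicates 1 and 2 alone averaged a TIMP to MMP ratio of 1.76, 74.4% for Mmp2 and Mmp14 in the MMP sum and 63.2% for Timp1 in the TIMP sum. These are sums of RNA levels and not of protein or activity.

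**Figure D4:**
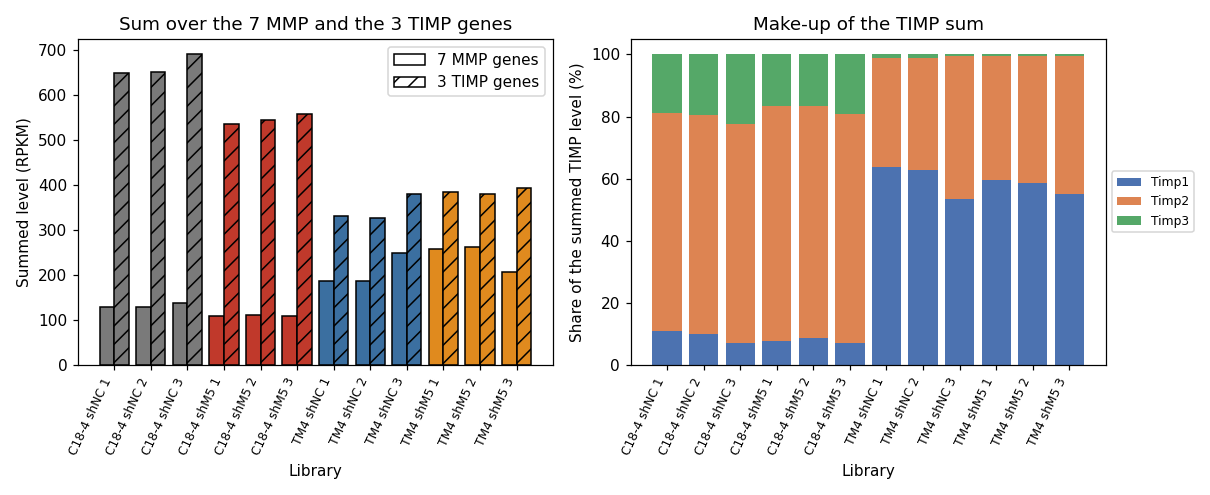
Left, summed RPKM of the 7 MMP genes (plain bars) and the 3 TIMP genes (hatched bars) in each library, from 0. Right, share of the TIMP sum (%) taken by Timp1, Timp2 and Timp3. The TIMP sum is 4.89 to 5.17 times the MMP sum in C18-4 libraries and 1.45 to 1.90 times in TM4 libraries, and it is mostly Timp2 in C18-4 and mostly Timp1 in TM4.

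The members Mmp3, Mmp10 and Mmp13 are neighbours in the genome. They belong to a run of 10 protein-coding genes on chromosome 9, in the order Mmp13, Mmp12, Mmp1b, Mmp3, Mmp1a, Mmp10, Mmp8, Mmp27, Mmp20 and Mmp7 in RefSeq. The 100 bases before the start of each, from the RefSeq promoter table on GRCm38.p6, are shown because all 3 hold the AP-1 motif TGAGTCA or its reverse complement TGACTCA, here in capitals, the letters that Fos and Jun dimers bind.
Mmp3, chr9:7445722-7445821, plus strand: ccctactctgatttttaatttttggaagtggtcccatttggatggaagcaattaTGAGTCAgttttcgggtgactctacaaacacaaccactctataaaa
Mmp10, chr9:7502242-7502341, plus strand: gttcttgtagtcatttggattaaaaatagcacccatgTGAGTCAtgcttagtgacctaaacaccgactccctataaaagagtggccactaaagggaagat
Mmp13, chr9:7272414-7272513, plus strand: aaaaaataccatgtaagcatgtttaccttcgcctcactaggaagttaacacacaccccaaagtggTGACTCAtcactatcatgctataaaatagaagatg
The motif lies at -63 to -57 in Mmp10, -46 to -40 in Mmp3 and -35 to -29 in Mmp13, counted from the start site. It was searched on both strands and occurs in the 100 upstream bases of 1.88% of 32851 promoters, and in 4.46% within 250 bases. Of the 7 members with a promoter in the table, the remaining 4, Mmp14, Timp1, Timp2 and Timp3, had no match, and Mmp2, Mmp9 and Mmp19 had no entry. The PEA3 motif AGGAAG, searched likewise, was within 250 bases of Mmp3, Mmp13, Mmp14, Timp1 and Timp3, and in 29.5% of all promoters. These are matches of letters only.

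Of 25 transcription factor genes known to act on MMP promoters, 23 were tested in C18-4. None was called without the block, and with it limma called 1 higher (Atf3) and 7 lower (Fosl1, Fosl2, Junb, Egr1, Cebpb, Runx1 and Ets2). With the block, 5.21% of all genes tested were called higher and 6.73% lower. Fosl1, an AP-1 subunit of the Fos family, averaged 9.44 ± 4.68 RPKM in C18-4 shNC and 4.76 ± 1.45 in C18-4 shM5 (log2 difference -0.86, limma adjusted p = 0.0116 with the block). Replicate 3 of shNC stood at 4.04 RPKM, below 2 of the shM5 libraries, so the groups overlapped. Runx1, a partner of AP-1 at MMP promoters, stood at 1.87 ± 0.342 and 0.953 ± 0.032 RPKM (-0.89, limma adjusted p = 0.0153 with the block). Between the shNC libraries, 15 of 24 were lower in C18-4 and 2 higher (Rela and Relb), beside 20.5% and 34.7% of all genes tested. Among the lower ones, Fosl1 averaged 9.44 RPKM in C18-4 and 125 in TM4 (log2 difference -3.87, limma adjusted p = 0.000239), and Fosl2 averaged 21.9 and 105 (-2.18, limma adjusted p = 0.0007). In TM4 none of 24 was called between shM5 and shNC, and without shNC replicate 3 limma called 6 higher and 12 lower, where 36.5% of all genes tested were called higher and 30.9% lower. Atf3 was at 72.40, 71.01 and 7.76 RPKM in TM4 shNC and at 4.73, 5.59 and 5.21 in TM4 shM5. Atf3, a stress-induced factor, thus set TM4 shNC replicates 1 and 2 apart from all other TM4 libraries. Its log2 difference was -2.71 with all 6 libraries (limma adjusted p = 0.192) and -3.77 without shNC replicate 3 (limma adjusted p = 1.87e-07), whereas in C18-4 it was 0.48 (limma adjusted p = 0.738, and 0.00557 with the block). Fosl2 was at 126.52, 127.42 and 60.34 RPKM in TM4 shNC and at 57.48, 60.86 and 53.46 in TM4 shM5, and was one of the 12.

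Of 25 genes for activators, other inhibitors and surface partners of MMPs, 17 were tested in C18-4. Pcsk5, a proprotein convertase, was at 2.74, 2.65 and 3.03 RPKM in C18-4 shNC and at 5.94, 6.10 and 5.06 in C18-4 shM5, and rose by 0.99 (SE 0.126, limma adjusted p = 0.0381). Slpi, a secreted inhibitor of serine proteases, was at 2.41, 1.80 and 2.99 RPKM and at 0.24, 0.25 and 0.50, and fell by 2.56 on the log2 scale (SE 0.303, limma adjusted p = 0.0367). With the block 5 were called higher (Thbs1, Plaur, Pcsk5, Sdc4 and Plat) and 5 lower, among them Lcn2, Lrp1, Furin and Slpi. The shares over all genes tested were 5.21% higher and 6.73% lower. Plat, tissue plasminogen activator, averaged 20.0 ± 5.70 RPKM in C18-4 shNC and 33.1 ± 0.531 in C18-4 shM5 (0.76, limma adjusted p = 0.00893 with the block). Lcn2, which binds Mmp9, had a log2 difference of -1.14 (limma adjusted p = 0.00146 with the block). Between the shNC libraries 5 of 20 were higher in C18-4 and 11 lower, beside 34.7% and 20.5% of all genes tested. Plau, the urokinase gene, averaged 0.040 RPKM in C18-4 shNC and 25.8 ± 19.7 in TM4 shNC, where its libraries stood at 14.00, 14.96 and 48.58, and Pcsk5 was listed at 0 in all TM4 libraries. In TM4 none of 18 was called, and without shNC replicate 3 limma called 10 higher and 1 lower (Thbs2), beside 36.5% and 30.9% of all genes tested.

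Of 28 other metalloproteinase genes of the ADAM, ADAMTS and related families, 19 were tested in C18-4. None was called without the block, and with it Tll1, Adamts1 and Adamts5 were higher and Adam10 and Adam22 lower, with log2 differences of 0.99, 0.28, 0.58, -0.42 and -0.23. The block called 5.21% of all genes tested higher and 6.73% lower. Adamts5 is an aggrecan-cutting enzyme and Adam10 a membrane sheddase, both known targets of Timp3. Between the shNC libraries, 11 of 22 were higher in C18-4 and 7 lower, beside 34.7% and 20.5% of all genes tested. Adam22 at 7.90 and the neprilysin gene Mme at 7.37 were among the 11. In TM4 none of 20 was called, and without shNC replicate 3 limma called 12 higher and 3 lower, beside 36.5% and 30.9% of all genes tested.

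Of 22 genes for cytokines and growth factors that induce MMPs and for their receptors, 21 had a row and 15 were tested in C18-4. None was called without the block, and with it Hbegf was higher and Tgfb3, Il1r1, Osmr and Met lower, with log2 differences of 0.41, -0.40, -0.48, -0.68 and -0.32. Among all genes tested, the block called 5.21% higher and 6.73% lower. Between the shNC libraries, 4 of 19 were higher in C18-4 and 11 lower, beside 34.7% and 20.5% of all genes tested. Il6 averaged 0.423 ± 0.215 RPKM in C18-4 shNC and 72.7 ± 31.3 in TM4 shNC (log2 difference -7.08, limma adjusted p = 1.28e-05), and Hgf, the ligand of Met, was listed at 0 in all C18-4 libraries and averaged 19.7 ± 1.91 RPKM in TM4 shNC. Il6 in TM4 was at 88.58, 92.89 and 36.59 RPKM in shNC and at 51.35, 52.11 and 34.30 in shM5, so that shNC replicate 3 again lay within the shM5 range. In TM4 none of 18 was called, and without that library limma called 7 higher and 9 lower, beside 36.5% and 30.9% of all genes tested.

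Beside the all-gene medians of -0.0024 in C18-4, 0.04 in TM4 and 0.15 between the shNC libraries, the list medians on the log2 scale were as follows. The transcription factors had -0.12, -0.11 and -0.93. The activators, inhibitors and partners had 0.01, 0.22 and -0.59, the other metalloproteinases 0.08, 0.23 and 0.56, and the cytokines and receptors -0.09, -0.18 and -1.11. Without TM4 shNC replicate 3 the all-gene medians were 0.04 in TM4 and 0.17 between the shNC libraries. The list medians were then -0.16 and -0.97 for the transcription factors, 0.31 and -0.47 for the activators, inhibitors and partners, 0.32 and 0.94 for the other metalloproteinases, and -0.23 and -1.08 for the cytokines and receptors. Between the shNC libraries limma then called 3 of 24 transcription factors higher in C18-4 and 15 lower, 6 and 11 of 20 activators, inhibitors and partners, 13 and 9 of 23 other metalloproteinases, and 5 and 11 of 20 cytokines and receptors. Of all genes tested, 42.0% were then called higher and 27.0% lower.

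Of 11147 genes compared with the members across the 12 libraries, those with the highest Pearson r of log2(RPKM + 0.1) were Ucp2 for Mmp9 (0.963), Fabp4 for Mmp13 (0.984), Gm46257, Bgn and Car12 for Mmp3 (0.998, 0.998 and 0.997) and Fam117b for Mmp14 (0.995). The points share the difference between the lines and the set of libraries, and the values are a description over 12 libraries.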

How the data were processed

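RNA-seq libraries of both cell lines were analysed, with 3 shNC and 3 shM5 libraries in each line, grouped and numbered by the sample labels. The authors selected mRNA with oligo(dT), used an Illumina HiSeq, aligned to reference genes by SOAPaligner (version 2.20) and deposited RPKM values with 2 decimals. The build and annotation are not given in the sources used here. RPKM keeps no read numbers, so the depth and the sampling error of a value are not given, and no count test was run. The value of 1 read, from steps between low values of 20 genes, was 0.951 to 1.02 in relative terms across libraries.

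log2(RPKM + 0.1) of genes averaging 0.5 RPKM or more was tested with limma (version 3.58.1, R 4.3.3, eBayes with a trend). p-values were adjusted over all genes tested by the Benjamini-Hochberg method and called under 0.05. The C18-4, TM4 and line comparisons used 6 libraries each, and the difference between the lines all 12. A fold change on this scale understates the change of low genes. The script was tested on simulated data. The pairing check (same-numbered deviations from the group means) was over 0.1 for all 3 pairs in C18-4, which was taken as pairing, although replicates 1 and 2 also correlated with each other (0.341 and 0.345). It was not met in TM4 or between the lines (-0.225, -0.198 and -0.303).

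The members and gene lists were chosen with earlier results of these data known. All members are named, and from each list, per comparison, up to 6 called genes with the largest difference. Listed names of called genes, marker genes, and the per-library values of Fosl2, Atf3 and Il6 in TM4 were chosen after their values were seen. For each member with a mean of at least 1 RPKM, the 3 genes with the highest r over 12 libraries were found, and some are named. Promoter sequences are those of RefSeq. Shared reads were judged from 50-base windows of the longest GENCODE transcript with up to 2 mismatches. Alternatives were the pseudocount, the filter, 2 rescalings, the replicate block, no trend, the threshold of the study's methods, other libraries left out, and the shM5 libraries for the comparison of lines. Some results are not reported here.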

Additional observations from a re-analysis of the deposited data

Results flagged for a closer look

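The difference between the lines in the shM5 effect passed the test for 1 member. For Mmp9 the effect in C18-4 was lower than that in TM4 by a log2 difference of -2.27 (limma adjusted p = 0.0468), with shM5 below shNC in C18-4 (0.240 against 0.867 RPKM) and above it in TM4 (2.34 against 1.39 RPKM). These levels are low, and Mmp9 was among the genes selected on these data.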

How the results depend on the processing

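Calls depended on a few choices. In C18-4, 68 genes were called between shM5 and shNC, against 4 with no filter, 45 without a trend, 0 under the threshold of the study's methods, 1386 with the replicate block, 0 to 237 when 1 library was left out and 3029 without the third library of each group. The 0 members called became 8 with the block, 8 without the third libraries, 1 without a trend (Mmp13) and 0 to 1 with 1 library left out (Timp1 without shNC replicate 3). In TM4, 0 genes (2866 at an unadjusted p under 0.05, limma) became 0 to 7433 with 1 library left out, the highest without shNC replicate 3, and 8016 without the third libraries. Members became 0 to 8 and 10. For the difference between the lines, 12 genes became 27 with a pseudocount of 1, 21 with no filter, 5 after median-ratio rescaling, 2 with the block, 22 without a trend, 0 under the methods' threshold, 0 to 4477 with 1 library left out (the highest without TM4 shNC replicate 3) and 7022 without the third libraries. The 1 member, Mmp9, became 0 with a pseudocount of 0.01, median-ratio rescaling, the block or the methods' threshold, 2 without a trend, 0 to 7 with 1 library left out and 10 without the third libraries. Between the lines, 6517 genes became 2265 under the methods' threshold. The cause of these changes was not tested, except that the stricter threshold calls fewer genes by construction.

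Of 637 alternative values of the members' log2 differences, 559 kept direction and side of the threshold, 54 became called, 22 lost a call (Mmp9 and Mmp14) and 2 changed sign. The latter were the uncalled Timp3 difference between the lines' effects, -0.0091 with a pseudocount of 1 and -0.023 to 0.343 with 1 library left out (lowest without TM4 shNC replicate 2, highest without replicate 3). In TM4 and between the lines, where the pairing check was not met, the replicate block changed no call of a member other than Mmp9. The Mmp9 call was lost between the shNC libraries (limma adjusted p = 0.0880) as well as in the difference between the lines. RPKM without read numbers limits what can be said of Mmp3 and Mmp10 in C18-4.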
